A study of Mus musculus with 2 samples.

Results

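The genes described here are the chemokines, colony-stimulating factors and inflammatory cytokines that 4T1 cells could release. They were chosen by name: every protein-coding gene of GENCODE M21 whose symbol starts with Cxcl, Ccl, Cx3cl or Xcl and a number, together with Csf1, Csf2, Csf3, Il1a, Il1b, Il6, Il11, Il18, Il33, Lif, Tnf and Prok2. The rule gave 49 members among the 21911 genes in the deposited table, of which 37 were chemokines and 12 were other cytokines. 4T1 is a mouse mammary carcinoma line that spreads to the lung when it grows in the fat pad of mice. For 48 h the cells were cultured with either PBS or potassium oxalate, the salt of a small dicarboxylic acid that is an end product of glyoxylate metabolism. The oxalate dose was given as 20 microM in 1 label and as 20 mM in another. One library of polyadenylated RNA was sequenced per condition, so no difference between the conditions has a replicate check and none could be tested.

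Chemokines are small secreted proteins that direct the migration of leukocytes through G protein-coupled receptors. CXC chemokines that carry a Glu-Leu-Arg (ELR) sequence before their first cysteines bind CXCR2 and attract neutrophils, whereas the CC chemokines that bind CCR2 attract monocytes. Colony-stimulating factors control the production and survival of granulocytes and macrophages, and carcinoma cells that release G-CSF are known to expand neutrophils in mice. Many of these genes are switched on by NF-kB, and many of their mRNAs are short-lived because AU-rich elements in the 3' untranslated region recruit decay factors.

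The promoters of the ELR chemokines are shown first because the group made up most of the members' RNA and its genes lie side by side in the genome. Cxcl5, which held 52.7% of the group's summed FPKM with PBS and 47.8% with oxalate, had no promoter entry. Each line gives the 200 bases before the RefSeq transcription start (GRCm38.p6), read along the gene, for the ELR genes with an entry (Cxcl1, Cxcl2, Cxcl3 and Cxcl15) and, as a gene of another chromosome with the same motif, for the CC chemokine Ccl20. Capitals mark matches to the NF-kB letters (GGG and TTTCC with any 2 bases between them) on either strand and to TATAAA on either strand.
Cxcl1, chr5:90891045-90891244 (plus strand): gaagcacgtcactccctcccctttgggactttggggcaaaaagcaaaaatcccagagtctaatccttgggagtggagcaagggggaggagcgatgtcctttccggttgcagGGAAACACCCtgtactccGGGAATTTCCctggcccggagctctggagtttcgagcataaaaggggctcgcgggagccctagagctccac
Cxcl2, chr5:90903699-90903898 (plus strand): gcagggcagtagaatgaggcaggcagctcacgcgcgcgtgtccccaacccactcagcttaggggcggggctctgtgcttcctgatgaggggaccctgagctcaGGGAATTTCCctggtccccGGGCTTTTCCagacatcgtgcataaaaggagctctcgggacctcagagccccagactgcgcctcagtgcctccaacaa
Cxcl3, chr5:90785901-90786100 (plus strand): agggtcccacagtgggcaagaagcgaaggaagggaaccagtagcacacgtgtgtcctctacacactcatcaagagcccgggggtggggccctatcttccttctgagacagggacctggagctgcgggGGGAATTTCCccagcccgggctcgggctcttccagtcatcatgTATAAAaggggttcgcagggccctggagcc
Cxcl15, chr5:90794334-90794533 (plus strand): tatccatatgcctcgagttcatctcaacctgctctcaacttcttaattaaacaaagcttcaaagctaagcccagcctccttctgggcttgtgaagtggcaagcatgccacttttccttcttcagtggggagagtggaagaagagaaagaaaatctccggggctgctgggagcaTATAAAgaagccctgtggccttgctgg
Ccl20, chr1:83116566-83116765 (plus strand): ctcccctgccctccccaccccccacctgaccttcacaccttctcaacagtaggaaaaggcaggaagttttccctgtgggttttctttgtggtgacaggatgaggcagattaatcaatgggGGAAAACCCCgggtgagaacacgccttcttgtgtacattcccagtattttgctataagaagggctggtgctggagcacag
Cxcl1, Cxcl2 and Cxcl3 all held the same 10 bases, GGGAATTTCC, at -71, -97 and -73 from the start, respectively. Cxcl1 and Cxcl2 each had a second match to the NF-kB letters, at -89 and -78, while Ccl20 had 1 match, at -80 on the opposite strand. The promoter of Cxcl15, which was listed at 0 in both libraries, held no match to these letters and a TATAAA at -27. A RefSeq promoter was matched by symbol for 38 of 49 members, and 7 of the 38 (18.4%) held the NF-kB letters. The share was 1.89% of 27025 genes counted in the same way (any promoter of the gene) and 1.63% of all 32851 promoters. All these counts searched the whole entry, which starts before the 200 bases shown and runs past the transcription start. Of the 38, the Ccl21b entry (chr4:42172920-42173119) lies apart from the Ccl21b gene of the rule (chr4:42255767-42256432). Among members averaging at least 1 FPKM, 10 had a matched promoter, and 5 of these (Cxcl1, Cxcl2, Cxcl3, Ccl20 and Csf1) held the letters. The AP-1 letters TGANTCA, which are not capitalised above, were found in 11 of 38 members and 8.97% of genes (7.81% of promoters), and TATAAA in 16 of 38 members and 15.67% of genes (13.62% of promoters). These matches describe the sequence only. Cxcl5, Csf3, Cxcl16, Ccl2 and Ccl7 had no entry.

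The deposited values are FPKM (fragments per kilobase of transcript at a fixed library total), which are scaled for transcript length and library depth. They are relative values, and the transcript lengths behind them are not given, so comparisons between genes and between the 2 libraries are approximate. From the steps between low FPKM values, the depth was estimated at 56700000 reads for the PBS library and 36500000 reads for the oxalate library. The intervals given below are 95% counting intervals of the log2 ratio from estimated reads (exact Clopper-Pearson). They cover counting error only and compare the 2 libraries, not the conditions. A value of 0 is given only as listed at 0, and it was not checked by another measure. Of 79 genes picked by ribosomal protein symbols, 3 were also listed at 0 in both libraries. The symbol pattern also admits paralogs ending in l, so these 3 do not show whether expressed genes can be listed at 0. The cells carried epithelial markers, with 6 of 6 averaging at least 1 FPKM and a summed level of 1450 FPKM with PBS and 1501 with oxalate. Of 4 general leukocyte markers, Ptprc, Cd52 and Laptm5 were listed at 0 and Coro1a had 0.18 and 0.30 FPKM, while 6 of 6 neutrophil markers were listed at 0. Of 7 macrophage markers, which summed to 12.8 and 12.3 FPKM, Cd68 had 7.79 and 7.11 FPKM and Csf1r 4.93 and 5.18 FPKM. Lyz2 and Mpeg1 did not pass 0.04 FPKM, and Adgre1, Fcgr1 and C1qa were listed at 0. The lymphocyte markers summed to 0.06 FPKM in each library. Of 6 fibroblast markers, which summed to 147.3 and 147.8 FPKM, Col1a1 had 143.5 and 144.6 FPKM and Pdgfra 1.88 and 1.93 FPKM, Col1a2, Col3a1 and Dcn were below 1 FPKM, and Lum was listed at 0. The endothelial markers summed to 0.08 and 0.11 FPKM. In such bulk RNA, fewer cells of a type and less RNA per cell cannot be told apart.

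Of 49 members, 15 averaged at least 1 FPKM over both libraries, 13 were lower but above 0 in at least 1 library, and 21 were listed at 0 in both libraries. The 21 genes were 42.9% of the members, beside 36.4% of all genes listed. Members above 0 numbered 27 with PBS and 26 with oxalate. Together the members summed to 1678 FPKM in the PBS library and 1491 FPKM in the oxalate library, or 0.296% and 0.267% of the FPKM of all genes. The 13 members between 0 and 1 spanned 0.01 to 0.985 FPKM as the mean of both libraries.

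**Figure D1:**
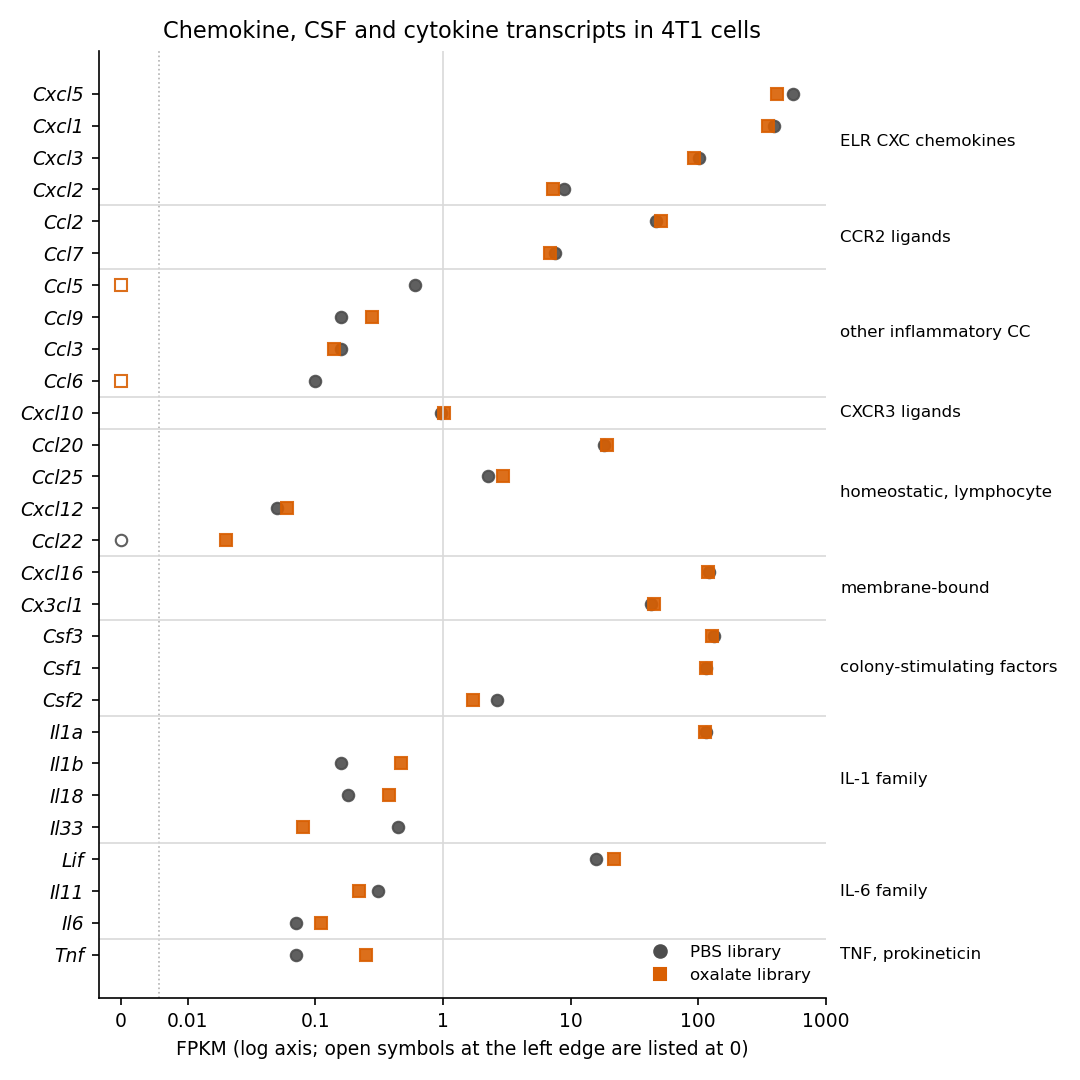
FPKM of the 28 members above 0 in at least 1 library, on a log axis, grouped by role; circles are the PBS library, squares the oxalate library, and open symbols at the left edge are listed at 0. The pairs of symbols nearly coincide for most genes above 1 FPKM, Cxcl5 is the highest in both libraries, and the wide gaps lie among genes below 1 FPKM.

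Next, the 2 libraries were compared. The results showed that none of the 15 members averaging at least 1 FPKM differed by 2-fold or more in log2((oxalate + 1)/(PBS + 1)), the measure used for every log2 change below. Over all 10267 genes at that level, 0.653% differed by 2-fold or more (0.292% higher and 0.36% lower with oxalate). None of the 15 passed 1.5-fold either, compared with 1.99% of all genes (0.935% higher and 1.05% lower). Without the pseudocount, Csf2 was 1.54-fold higher with PBS, and the share of all genes past 1.5-fold was not computed that way. At 1.2-fold, Lif and Ccl25 were higher with oxalate, against 4.75% of all genes, and Cxcl5 and Csf2 were lower, against 5.19%. In either direction that is 4 of 15 members beside 9.94% of all genes. The members' log2 changes ran from -0.43 for Cxcl5 to 0.45 for Lif. Without the pseudocount, Csf2 (log2 ratio -0.63) and not Cxcl5 (-0.43) was the lowest. The median log2 change of the members was -0.03, and the median of all genes was 0.0031. Oxalate values were lower for 9 members and higher for 6, while 49% of all genes were lower. Counting intervals lay off 0 for 9 of the 15 members, beside 48.8% of all genes at that level. With reads taken from the exon-union length they did so for 10 of the 15, beside 61% of all genes. With a pseudocount of 0.01 FPKM and every listed gene, 7 of 49 members passed 2-fold, 4 higher and 3 lower, beside 8.86% of all genes (3.62% higher and 5.24% lower).

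**Figure D2:**
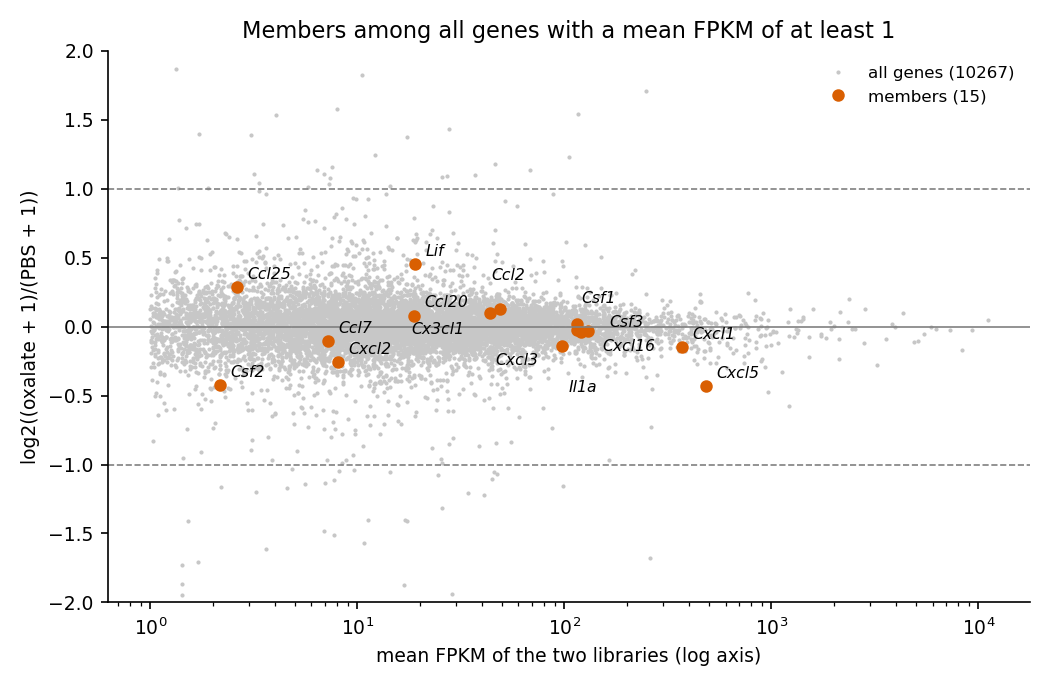
Log2((oxalate + 1)/(PBS + 1)) against the mean FPKM of both libraries (log axis) for the 10267 genes averaging at least 1 FPKM (grey; 6 lie outside the plotted range) and the 15 members (orange); dashed lines mark 2-fold. All members lie inside the 2-fold lines, and Cxcl5 sits below the narrow band of genes above 100 FPKM.

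The neutrophil-attracting ELR CXC chemokines were the largest group. Their summed FPKM was 1055 with PBS and 862 with oxalate, a log2 change of -0.29 and a ratio of 0.817. They held 62.9% of the members' summed FPKM with PBS and 57.8% with oxalate. All 4 measured genes of the group were lower with oxalate, beside 49% of all genes averaging at least 1 FPKM. Cxcl15, the lung chemokine lungkine, was listed at 0.

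Cxcl5, which attracts neutrophils through CXCR2, had 556 FPKM in the PBS library and 412 FPKM in the oxalate library. The PBS value was 1.35-fold higher, with a log2 ratio of -0.43 and a counting interval of -0.46 to -0.41 from 49633 and 23679 estimated reads. Cxcl5 ranked 112 among all genes by FPKM with PBS and 165 with oxalate. It accounted for 74.6% of the difference in the group's sum, and its share of that sum was 52.7% with PBS and 47.8% with oxalate. Among the 967 genes averaging at least 100 FPKM, 3% were at least 1.2-fold lower with oxalate, and the count of genes as low as or lower than Cxcl5 in log2 change was 7, Cxcl5 included. Base composition moved with the change: the longest coding transcript of Cxcl5 is 37.8% GC, and the 280 genes within 2 points of it (those averaging at least 5 FPKM) had a median log2 change of -0.09. Relative to that median the change of Cxcl5 was -0.34, and 5 of the 280 genes, Cxcl5 included, changed as much. The part of base composition in the Cxcl5 value was not tested.

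Cxcl1 (KC), a second CXCR2 ligand, had 389 FPKM with PBS and 351 FPKM with oxalate. Its log2 ratio was -0.15 (counting interval -0.18 to -0.12), a change that 14.4% of all genes with a mean of at least 1 matched or exceeded in the same direction. Cxcl3, a close paralog, had 102 FPKM with PBS and 92.6 FPKM with oxalate (log2 change -0.14, counting interval -0.20 to -0.08). Cxcl2 (MIP-2), which macrophages release early in inflammation, was far lower, at 8.86 and 7.24 FPKM, with a log2 change of -0.26 and a counting interval of -0.47 to -0.11. Cxcl2 and Cxcl3 are near-identical in places: 5.8% of the 50-base stretches of Cxcl2 transcripts also occur in Cxcl3, so that reads could be split between them and their separate values are less certain than those of Cxcl1 and Cxcl5. Without Cxcl5, the group summed to 499.6 FPKM with PBS and 450.5 with oxalate, and its log2 change was -0.15. Cxcl1 and Cxcl3 differed between the libraries by less than Cxcl5, and their counting intervals did not reach that of Cxcl5. Genes of like GC content had median log2 changes of -0.02 for Cxcl1, -0.04 for Cxcl3 and -0.04 for Cxcl2. The part of base composition in these values was not tested.

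These genes share 1 locus (GRCm38). Cxcl5 (chr5:90759360-90761624), Cxcl3 (chr5:90786103-90789600), Cxcl15 (chr5:90794534-90803067), Cxcl1 (chr5:90891241-90893115) and Cxcl2 (chr5:90903871-90905938) lie on the plus strand within 146.6 kb. Between them lie Ppbp, which encodes the CXCR2 ligand NAP-2 and is outside the rule, and Pf4, the platelet chemokine. Ppbp had 12.8 FPKM with PBS and 10.96 FPKM with oxalate (log2 change -0.21, counting interval -0.40 to -0.05). Pf4 was listed at 0 in the PBS library and had 0.22 FPKM in the oxalate library. All 5 ELR chemokines above 1 FPKM at this locus were therefore lower in the oxalate library, beside 49% of all genes averaging at least 1 FPKM. Of the neighbours, Rassf6 had 11.03 and 12.1 FPKM (log2 change 0.12), Mthfd2l had 14.4 and 13.2 FPKM (-0.13), and the EGF-family ligand Areg had 26.2 and 24.4 FPKM (-0.10). The counting intervals of Rassf6 (-0.02 to 0.29), Mthfd2l (-0.27 to 0.0019) and Areg (-0.21 to 0.0098) included 0, the latter pair only just. Mthfd2l changed nearly as much as Cxcl1 and Cxcl3. Its interval is wider because it rests on 1165 and 683 reads, compared with 20994 and 12201 for Cxcl1.

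**Figure D3:**
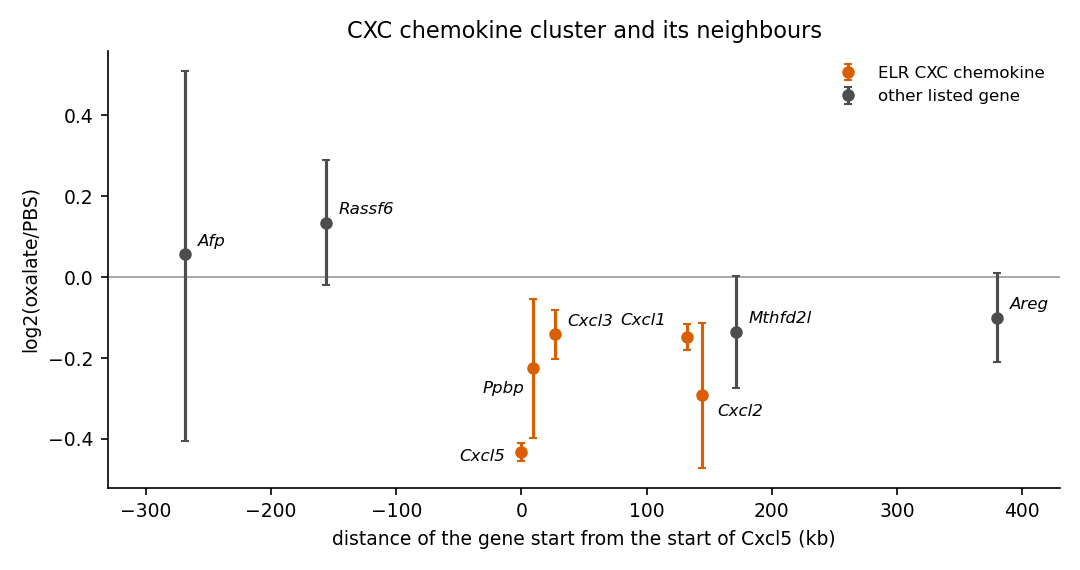
Log2(oxalate/PBS) of genes averaging at least 1 FPKM within 400 kb of Cxcl5, against the distance of each gene start from the start of Cxcl5 in kb; bars are 95% counting intervals, orange marks ELR chemokines and grey marks other genes. The 5 orange intervals lie below 0, and those of the 4 grey genes include 0, Mthfd2l and Areg only just.

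The monocyte-attracting CCR2 ligands held 3.22% of the members' summed FPKM with PBS and 3.88% with oxalate, and their sum was slightly higher with oxalate. Their summed FPKM was 54.1 with PBS and 57.8 with oxalate, a log2 change of 0.10. Ccl2 (MCP-1), the main monocyte chemokine, had 46.5 FPKM with PBS and 50.9 FPKM with oxalate (log2 change 0.13, counting interval 0.03 to 0.23). Ccl7 (MCP-3), which lies beside it, had 7.54 and 6.95 FPKM, a log2 change of -0.10 with a counting interval that spanned 0 (-0.38 to 0.14). The direction of the group sum thus rested on Ccl2. The other CCR2 ligands, Ccl8 and Ccl12, were listed at 0 in both libraries. All 4 belong to the CC cluster on chromosome 11, where Ccl2 (chr11:82035571-82037453) and Ccl7 (chr11:82045712-82047525) were the 2 genes above 1 FPKM among 11 CC chemokines spread over 1629.1 kb.

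The other inflammatory CC chemokines, which attract several kinds of leukocyte, summed to 1.02 FPKM with PBS and 0.42 with oxalate. Ccl5 (RANTES) was at 0.60 FPKM in the PBS library, from 18 estimated reads, and was listed at 0 in the oxalate library. Ccl6 was at 0.10 FPKM, from 8 reads, and was listed at 0 with oxalate. Ccl9 was at 0.16 and 0.28 FPKM, from 27 and 31 reads, and Ccl3 (MIP-1 alpha) at 0.16 and 0.14 FPKM, from 7 and 4 reads. Ccl4, Ccl11, Ccl24 and Ccl26 were listed at 0 in both. At these levels a few reads set each value. Of the CXCR3 ligands, which interferon induces and which attract T cells, Cxcl10 had 0.96 and 1.01 FPKM, respectively, from 67 and 45 reads, with a counting interval of the log2 ratio from -0.52 to 0.63. Cxcl9 was listed at 0 in both.

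Among homeostatic and lymphocyte-attracting chemokines, 2 of 16 passed a mean of 1 FPKM. Ccl20, the CCR6 ligand made by epithelia, had 18.2 FPKM with PBS and 19.3 FPKM with oxalate, a log2 change of 0.08 whose counting interval spanned 0 (-0.06 to 0.22). Ccl25, a CCR9 ligand of thymus and gut, had 2.26 and 2.97 FPKM, a log2 change of 0.28 from 101 and 85 reads, with a counting interval of -0.05 to 0.82. Ccl25 overlaps Elavl1 on the opposite strand, and the library preparation does not mark strand, so reads of the overlap cannot be told apart. The overlap holds 2.1% of the 50-base stretches of Ccl25. Elavl1 had 18.4 and 22.0 FPKM (log2 change 0.25), and its part in the Ccl25 value was not tested. Cxcl12, the CXCR4 ligand of stroma, was at 0.05 and 0.06 FPKM, and Ccl22 was listed at 0 in the PBS library and had 0.02 FPKM in the oxalate library. The other 12 (Ccl1, Ccl17, Ccl19, Ccl21a, Ccl21b, Ccl27a, Ccl27b, Ccl28, Cxcl13, Cxcl14, Cxcl17 and Xcl1) were listed at 0 in both.

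The chemokines that are made as transmembrane proteins, with a mucin stalk that proteases can cut, were both well expressed. Cxcl16, the CXCR6 ligand, had 122 FPKM with PBS and 119 FPKM with oxalate (log2 change -0.04, counting interval -0.07 to -0.01). It overlaps Zmynd15, with which it shares 16.9% of its 50-base stretches. Zmynd15 was at 13.7 and 13.6 FPKM. Cx3cl1 (fractalkine), the CX3CR1 ligand, had 42.3 and 45.3 FPKM, a log2 change of 0.10 and a counting interval of 0.02 to 0.17. Their sum was level between the libraries, at 164.4 and 164.0 FPKM. The transcripts of Adam10 and Adam17, which encode the sheddases of both proteins, were at 44.9 and 42.9 FPKM and at 15.1 and 16.1 FPKM, respectively.

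**Figure D4:**
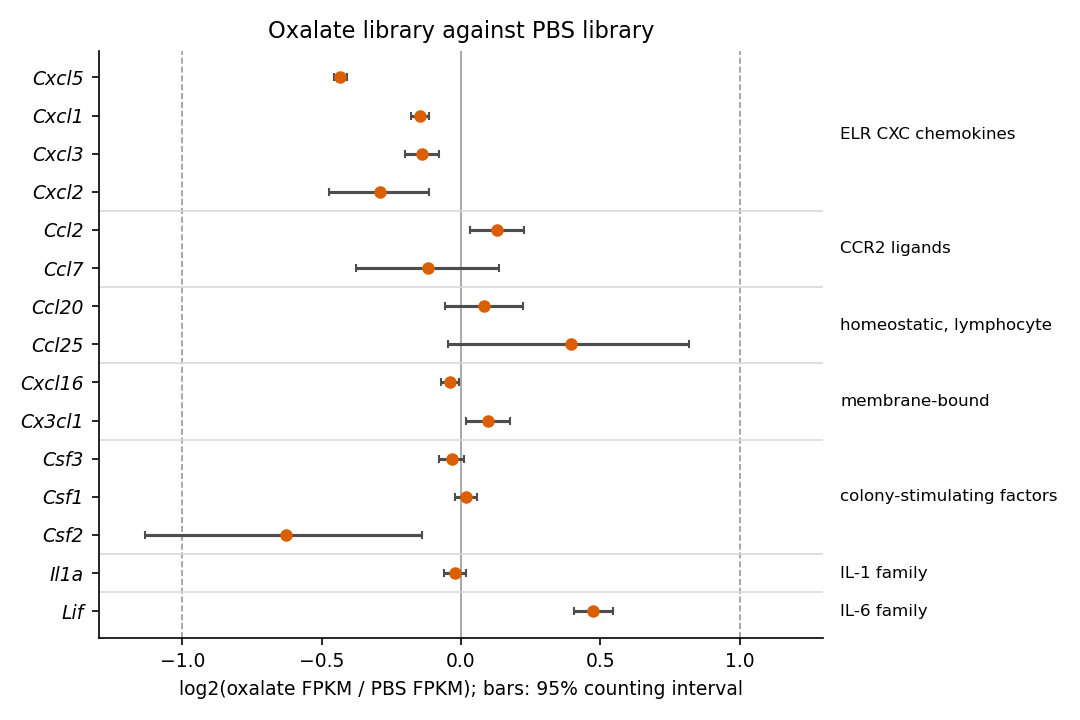
Log2(oxalate FPKM/PBS FPKM), without a pseudocount, of the 15 members averaging at least 1 FPKM, by role, with 95% counting intervals from estimated reads; dashed lines mark 2-fold. The 4 ELR chemokines lie below 0, Lif lies above it, and the widest intervals belong to Csf2 and Ccl25.

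The 3 colony-stimulating factors summed to 248.8 FPKM with PBS and 246.3 with oxalate. Csf3 (G-CSF), which drives neutrophil production in the marrow, had 132 FPKM in the PBS library and 129 FPKM in the oxalate library. Its log2 change of -0.03 had a counting interval that spanned 0 (-0.08 to 0.01). Csf1 (M-CSF), the growth factor of macrophages, had 114 and 116 FPKM, with a log2 change of 0.02 and a counting interval of -0.02 to 0.06. Thus the levels of the growth factors of both lineages differed little between the libraries. Csf2 (GM-CSF) stood much lower in both libraries. It had 2.64 FPKM with PBS and 1.71 FPKM with oxalate, from 120 and 50 reads. Csf2 shares 6.4% of its 50-base stretches with Gm12223, whose part in the Csf2 value was not tested. Its log2 change was -0.43, and the log2 ratio without the pseudocount was -0.63 with a counting interval of -1.13 to -0.14. Of all genes with a mean of at least 1, 1.83% were lower by as much as Csf2 or more.

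In the IL-1 family, Il1a was the one abundant gene. Il1a, an alarmin that acts from the cell surface or from dying cells, had 115 FPKM with PBS and 114 FPKM with oxalate (log2 change -0.02, counting interval -0.06 to 0.02). Il1a shares 9.1% of its 50-base stretches with Gm14023. Il1b, the secreted form that needs caspase-1, was at 0.16 and 0.47 FPKM, from 12 and 23 reads, with a counting interval of the log2 ratio from 0.51 to 2.71. Il33, a nuclear alarmin of epithelia, was at 0.44 and 0.08 FPKM, from 33 and 4 reads (counting interval -4.37 to -0.92). Il18 was at 0.18 and 0.38 FPKM, from 8 and 11 reads (-0.35 to 2.61). All 3 were below 1 FPKM in both libraries, and the spread between cultures at this level is not known.

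The IL-6 family held the member with the highest log2 change. Lif, which signals through LIFR and gp130, had 15.9 FPKM with PBS and 22.1 FPKM with oxalate, 1.39-fold more. Its log2 change was 0.45 and the counting interval of its log2 ratio was 0.41 to 0.55, from 3517 and 3149 reads. Of all genes with a mean of at least 1, 174 (1.70%) changed as much or more in that direction, Lif included. Its transcripts are 53.0% GC, and genes of like GC content had a median log2 change of 0.03. Lif has 2 coding transcripts. It did not pass 1.5-fold, which 1.71% of the genes with 2 did in either direction. Il11 was at 0.31 and 0.22 FPKM, from 23 and 11 reads, and Il6 at 0.07 and 0.11 FPKM, from 5 reads in each library. Tnf, the prototype inflammatory cytokine, was at 0.07 and 0.25 FPKM, from 6 and 14 reads (counting interval of the log2 ratio 0.39 to 3.52). Prok2 (Bv8), which mobilises myeloid cells, was listed at 0 in both.

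**Figure D5:**
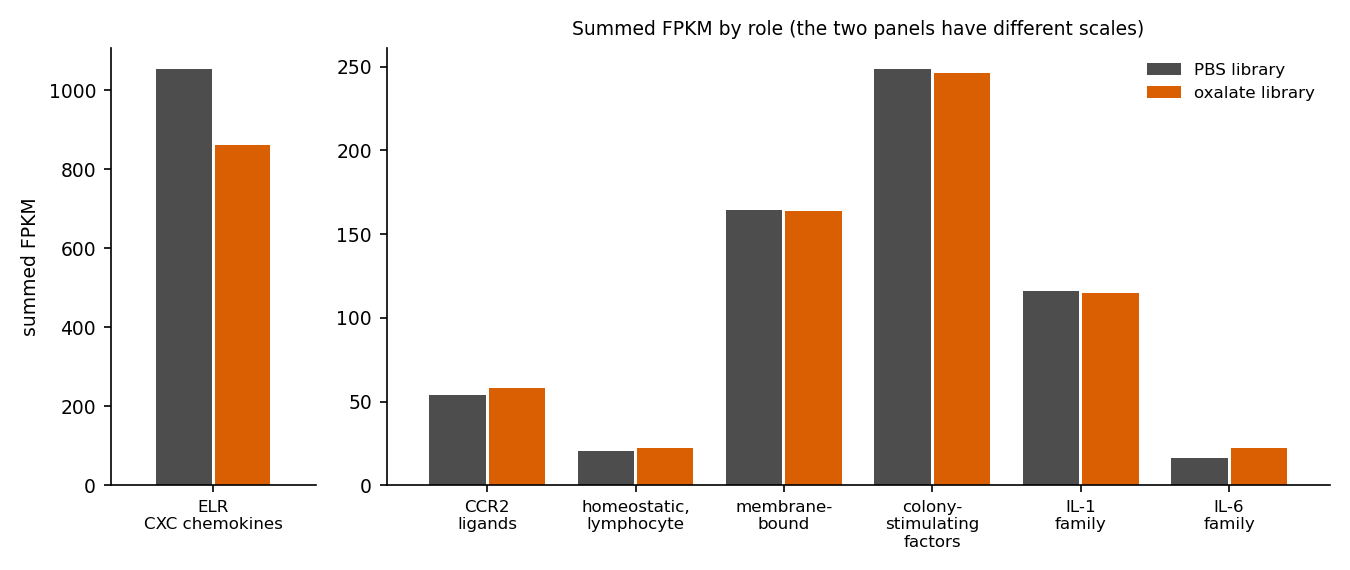
Summed FPKM by role in the PBS library (grey) and the oxalate library (orange) for groups above 10 FPKM; the 2 panels have different scales, and both start at 0. The ELR chemokines stand at 1055 and 862 FPKM, the IL-6 family at 16.2 and 22.4 FPKM, and the bars of the membrane-bound chemokines, colony-stimulating factors and IL-1 family are nearly level.

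To see whether 4T1 cells also carried the receptors of these ligands, the receptor genes were listed. Of 23 chemokine receptors, 13 were listed at 0 in both libraries, including Cxcr1, Cxcr2, Ccr2 and Cxcr4, and 3 had a mean of at least 1 FPKM. Ackr3, a scavenging receptor of CXCL12, was the highest, at 27.6 and 25.5 FPKM. Cxcr3 was at 4.40 and 4.86 FPKM, and Ccr10 at 1.32 and 1.24 FPKM. Of 19 receptors of the other members, 8 had a mean of at least 1, 4 of them higher and 4 lower with oxalate. Tnfrsf1a, the main TNF receptor, was at 61.6 and 64.2 FPKM, and Il6st (gp130) at 47.7 and 51.8 FPKM. Il6ra, the IL-6 receptor, passed 1.5-fold, with 2.37 FPKM in the PBS library and 4.63 FPKM in the oxalate library (log2 change 0.74). Lifr had 0.02 FPKM in the PBS library and 0 in the other, and Csf3r and Csf2ra were listed at 0 in both. Csf1r was at 4.93 and 5.18 FPKM. Il1r1 and Il1rap, which encode the IL-1 receptor and its accessory chain, were at 2.44 and 2.30 FPKM and at 12.22 and 12.19 FPKM. Therefore receptor transcripts for Csf1 and Il1a were present, and those for Cxcl1, Cxcl5 and Csf3 were listed at 0.

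The regulators of these genes were then examined. All 15 genes listed for NF-kB and C/EBP control had a mean of at least 1 FPKM. In the oxalate library 11 were higher and 4 lower, with a median log2 change of 0.07. Beside this count and those of the lists below, 49% of all genes averaging at least 1 FPKM were lower. The largest rises were those of Cebpb, at 56.7 and 80.2 FPKM (log2 change 0.49), and Irf1, at 27.9 and 36.2 FPKM (0.36). Rela, the activating NF-kB subunit, had 85.2 FPKM with PBS and 95.2 with oxalate, and Nfkb2, an NF-kB precursor subunit, had 73.2 and 74.0 FPKM. One of the 15, Nfkbiz, which encodes the nuclear NF-kB cofactor I kappa B zeta, passed 1.5-fold, with 36.0 FPKM in the PBS library and 19.5 FPKM in the oxalate library (log2 change -0.85). Of 9 genes listed for AU-rich mRNA decay and stability, 3 stood higher and 6 lower (median log2 change -0.08). Zfp36l1, which encodes a decay factor that binds AU-rich elements, had 14.5 FPKM with PBS and 40.8 FPKM with oxalate, a log2 change of 1.43 that passed 2-fold. Hnrnpd (AUF1), another AU-rich binding protein, had 95.1 and 62.8 FPKM (log2 change -0.59). The highest 2 of the list were Zfp36l2, at 120.7 and 105.6 FPKM, and Khsrp, which encodes an AU-rich decay factor, at 88.6 and 83.7 FPKM. Nfkbiz, Zfp36l1 and Hnrnpd have 4, 4 and 6 coding transcripts, and the share of genes past 1.5-fold was 2.82% for 3 or more coding transcripts compared with 0.574% for 1. Of the 15 members, 9 have 1 coding transcript. Of 11 genes for inhibition, maturation and shedding, 5 had a mean of at least 1, 3 higher and 2 lower, and none passed 1.5-fold. The highest 2 of these were Adam10 and Rhbdf2, a cofactor of ADAM17, the latter with 18.9 and 20.9 FPKM. Of 12 other attractants outside the rule, 7 had a mean of at least 1, 4 higher and 3 lower. The highest of these were Mif, at 1178 and 1286 FPKM, and Tslp, at 21.9 and 20.4 FPKM.

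Because the decay factors bind AU-rich elements, the ATTTA pentamer was counted in the 3' untranslated regions of the members. The 15 members had a median of 5 ATTTA in the longest coding transcript, or 4.50 per kb, compared with 2 and 1.32 per kb over 10165 genes. At least 3 were present in 10 of 15 members and in 39.3% of all genes, and at least 5 per kb in 6 of 15 members and in 5.87% of all genes. The lines below give the 30 bases of each region with the most ATTTA (GRCm38, GENCODE M21, DNA letters read along the gene), with ATTTA in capitals, for the 6 members with at least 5 per kb, for Lif, which had the highest log2 change, and for Cxcl5, which had the lowest.
Csf2, chr11:54247329-54247358 (minus strand): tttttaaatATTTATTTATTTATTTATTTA
Cxcl1, chr5:90892602-90892631 (plus strand): gagggtcctATTTATTTAtgtATTTATTTA
Cxcl2, chr5:90905327-90905356 (plus strand): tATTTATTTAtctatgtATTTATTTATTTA
Csf3, chr11:98702984-98703013 (plus strand): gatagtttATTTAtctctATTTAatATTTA
Ccl20, chr1:83119055-83119084 (plus strand): tgtaaagatATTTAatgttctgtttATTTA
Cxcl3, chr5:90787629-90787658 (plus strand): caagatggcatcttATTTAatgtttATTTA
Lif, chr11:4272414-4272443 (plus strand): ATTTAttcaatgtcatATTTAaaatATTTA
Cxcl5, chr5:90760634-90760663 (plus strand): agcttcctgctcatctcacaagtgtATTTA
Csf2 held 9 ATTTA in 317 bases, or 28.4 per kb, with 5 of them overlapping end to end in the window shown. Cxcl1 held 7 (11.8 per kb), Csf3 held 6 (8.97 per kb) and Cxcl2 held 11 (7.36 per kb). Cxcl5 held 5 (4.50 per kb), spread so that no window of 30 bases had more than 1, and Lif held 7 in 3180 bases (2.2 per kb). Ccl20 held 9 (8.57 per kb), Cxcl3 held 5 (7.75 per kb) and Ccl25 held 0. Of the 6 members with at least 5 per kb, 5 were lower with oxalate (Csf2, Cxcl2, Cxcl1, Cxcl3 and Csf3) and Ccl20 was higher. Among all genes averaging at least 1 FPKM, 49% were lower, and the share among genes with at least 5 per kb was not computed. Cxcl1, Cxcl2 and Cxcl3 also share 1 locus. The counting intervals of Csf3 and Ccl20 spanned 0, and those of the other 4 members lay below it. Whether the change of any member is tied to these elements was not tested.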

How the data were processed

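RNA was measured in 2 libraries of 4T1 cells, treated with PBS or potassium oxalate for 48 h, 1 per condition. The labels give the dose as 20 microM and 20 mM, and the methods of the study as 20 µM. The authors enriched mRNA with oligo(dT), primed cDNA at random and deposited FPKM values rounded to 2 decimals. The submitters' processing notes name Bowtie2 2.2.8 and TopHat2 2.1.1, whereas the quantification tool, genome build and annotation are not given in the sources used here. A symbol in GENCODE M21 (GRCm38) was found for 21848 of 21911 identifiers. FPKM is relative to the library total, so a rise in 1 abundant gene lowers the others.

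Log2((oxalate + 1)/(PBS + 1)) was computed with a pseudocount of 1 FPKM, which shrinks changes of low genes, over genes averaging at least 1 FPKM in the 2 libraries. No test was run, as 1 library per condition allows none. FPKM times transcript length moved in steps of 0.0176 (PBS) and 0.0274 (oxalate) FPKM kb, and the inverse of a step gave the depth. Of 81 and 74 values of genes with 1 transcript shorter than 700 bases and up to 10 reads, 100% lay within 0.2 of a whole read. Reads of genes with several coding transcripts used their mean length and are estimates. The scripts were tested on simulated data. Promoters are from RefSeq.

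The members and lists were chosen with earlier results of these data known. Every member was named. Of the pathway lists, genes past 1.5-fold and the highest 2 by mean FPKM were named. Other list genes (such as Lifr, Csf1r, Il1r1, Il1rap, Adam17, Cxcr2, Cebpb and Irf1) were chosen after their values were seen. Results were recomputed with pseudocounts of 0.1 and 0.01, a rescaling of the oxalate library, other filters on the mean, other folds, other memberships of the groups and another read length. Subtracting genes of like GC content, and joining a pseudocount of 0.01 with all members, were added after the data were seen. The scripts ran under Python 3.11.15 with scipy 1.17.1, pandas 2.3.3, matplotlib 3.10.9 and numpy 2.4.6.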

Additional observations from a re-analysis of the deposited data

How the results depend on the processing

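The count of members past 2-fold was 0 under other pseudocounts, a rescaled oxalate library (factor 0.9995), other filters on the mean, a threshold of 1.5-fold and subtraction of genes of like GC content. It was 4 at 1.2-fold, and 7 when a pseudocount of 0.01 was joined with all 49 members (added after the data were seen), 4 of the 7 higher and 3 lower, beside 8.86% of all genes, each of the 7 with a mean FPKM under 1: Il1b, Il18, Tnf and Ccl22 were higher, and Ccl5, Ccl6 and Il33 lower. The count of 0 at 1.5-fold holds for a pseudocount of 1. Csf2 passed 1.5-fold with a pseudocount of 0.1 (log2 change -0.60) or 0.01 (-0.62). With either of these, Csf2 and not Cxcl5 (-0.43) was the lowest member averaging at least 1 FPKM. The median log2 change of the members stayed between -0.05 and 0.00. The neutrophil-attracting output was -0.29, -0.15 without Cxcl5 and -0.26 with Ppbp, Csf2 and Csf3 added. The monocyte-attracting output was 0.10 and changed sign to -0.10 without Ccl2, which leaves Ccl7 as its measured gene, and was 0.05 with Ccl3, Ccl4, Ccl5, Cx3cl1 and Csf1 added. Of 75 values of named members under alternatives, 2 moved beyond the counting interval and 2 changed sign. Each did so after genes of like GC content were subtracted: Cxcl5 went to -0.34, Il1a to 0.04 and Csf1 to -0.01. The 75 include values that could not move or could hardly move. The exon-union length alters the counting interval and never the value, and the rescaling used a factor of 0.9995. With the exon-union length, 10 of 15 counting intervals lay off 0 in place of 9 (all genes: 61% and 48.8%), Ccl25 being the addition. No paired analysis was possible because PBS and oxalate were sequenced once each, which also means that no library could be left out. The estimated depth of the oxalate library was lower, and below 1 FPKM it leaves few reads per gene, so that differences there rest on counts of 0 to 67 reads.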
